A study of Homo sapiens with 12 samples.

Results

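The sarcoma fusions VGLL2-NCOA2 and TEAD1-NCOA2 were compared directly with each other, over 58735 genes in 6 of the 12 libraries of the series. The 3 VGLL2-NCOA2 and 3 TEAD1-NCOA2 libraries were taken by their labels, and the test covered the 14109 genes that reached 1 FPKM in 3 or more of the 6. FPKM are fragments divided by gene length and by a depth value set for each library. All cells were HEK293T, an established line from human embryonic kidney with the SV40 large T antigen. They had been transfected for a short time with a plasmid for VGLL2-NCOA2, with a plasmid for TEAD1-NCOA2, or with the empty vector (control), and each group had 3 libraries of bulk RNA. The 3 libraries of cells that received the active YAP mutant YAP5SA entered only 1 alternative fit. The fusions were driven by plasmids and not by the rearranged gene of a tumour, in a line that is not of muscle origin.

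TEAD transcription factors bind DNA but need cofactors to activate their targets, and the Hippo kinases restrain the best known of these, YAP and TAZ. VGLL2 is a vestigial-like cofactor that binds TEAD through its Tondu motif, so that a VGLL2 fusion reaches DNA through the TEAD proteins of the cell. TEAD1 carries its own DNA-binding domain, and in both fusions the 3′ partner NCOA2, a coactivator of nuclear receptors, brings activation domains that recruit acetyltransferases.

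Levels are given in FPKM per library or as mean ± SD with n = 3 libraries per group. Differences are VGLL2-NCOA2 minus TEAD1-NCOA2 on the log2(FPKM + 1) scale, with the standard error from limma and a p-value adjusted over all 14109 genes by the Benjamini-Hochberg method. On this scale the changes of weakly expressed genes come out too small. Calls needed an adjusted p under 0.05 and a difference beyond 1 or -1. The median difference of all tested genes was 0.10, and 0.01 after each library was divided by its median-of-ratios factor, so calls were read on both scales. These factors lay between 1.041 and 1.044 for VGLL2-NCOA2 and between 0.962 and 0.966 for TEAD1-NCOA2. Recovered fragments assigned to genes numbered 14414778 to 15222480 per library with VGLL2-NCOA2 and 14140996 to 15559838 with TEAD1-NCOA2. Pearson correlations of log2 values across tested genes were 0.980 between VGLL2-NCOA2 libraries, 0.982 to 0.987 between TEAD1-NCOA2 libraries, and 0.950 to 0.958 between libraries of different fusions. The share of fragments from mitochondrial genes was 6.39% ± 0.195 with VGLL2-NCOA2, 7.95% ± 1.80 with TEAD1-NCOA2 and 11.1% ± 1.35 in control.

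The transfected genes were measured first. VGLL2 had 247, 253 and 269 FPKM in VGLL2-NCOA2 libraries, against 0.0573, 0.427 and 0.242 in TEAD1-NCOA2 libraries and 1.13 to 1.70 in control. NCOA2, present in both plasmids, had 607, 621 and 613 FPKM with VGLL2-NCOA2, against 279, 246 and 251 with TEAD1-NCOA2 and 1.53 to 2.59 in control. The groups did not overlap for either gene, and the libraries of each fusion carried the transcript their labels name. Mean NCOA2 was 2.37 times as high with VGLL2-NCOA2 (log2 difference 1.24 ± 0.06, adjusted p = 8.18e-05 in limma). With all 12 libraries in the fit this p was 0.593, since 1 YAP5SA library held NCOA2 at 141 FPKM and the other 2 were listed at 0. TEAD1 had 11.2, 12 and 12 FPKM with VGLL2-NCOA2, against 58.1, 50.8 and 49.7 with TEAD1-NCOA2 and 2.91 to 3.46 in control. TEAD1 was thus highest where its fusion was expressed, and with VGLL2-NCOA2 all 3 libraries still lay above all control libraries. An exact permutation test of mean FPKM gave p = 0.1 for each of the 3 genes, 2-sided, the smallest value that 3 against 3 libraries allow. Fragments from a plasmid and from the chromosomal gene cannot be told apart in these gene-level values, and neither can fewer transfected cells and less transcript per cell in bulk RNA. NCOA2 values were thus unequal between the fusions. They compare amounts of fusion transcript only if both plasmids hold the same stretch of NCOA2, which was not checked. The part of this inequality in the differences that follow was not tested.

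**Figure D1:**
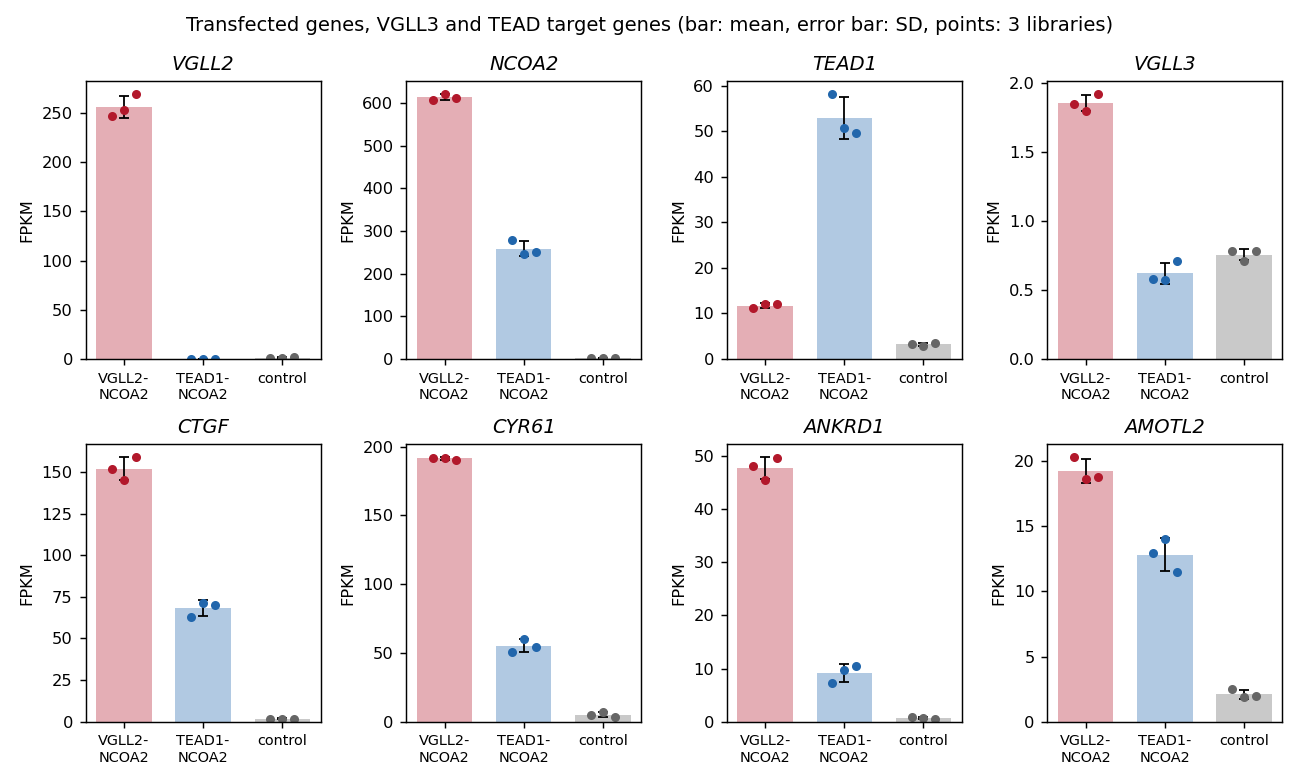
FPKM (y axis, a linear scale of its own in each panel) in the VGLL2-NCOA2, TEAD1-NCOA2 and control libraries for VGLL2, NCOA2, TEAD1, VGLL3, CTGF, CYR61, ANKRD1 and AMOTL2. Bars are means, error bars SD and points the 3 libraries of a group, and in all panels but that of TEAD1 the VGLL2-NCOA2 libraries lie above the libraries of the other 2 groups.

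The other TEAD factors and cofactors differed little, with the exception of VGLL3. Of 12 listed genes, 9 passed the filter on low values, and only the transfected VGLL2 and TEAD1 were called. VGLL3, a vestigial-like cofactor of the same family, averaged 1.85 ± 0.0607 FPKM with VGLL2-NCOA2, 0.620 ± 0.0758 with TEAD1-NCOA2 and 0.758 ± 0.0415 in control. Its difference of 0.82 ± 0.10 had an adjusted p of 0.00115 in limma but missed the size threshold. It passed that threshold with a pseudocount of 0.1 (1.44), on the TPM scale (1.33) and with voom on recovered fragments (1.46). The libraries of the fusions did not overlap. VGLL3 passed the filter only through the VGLL2-NCOA2 libraries, so its p-value depends in part on the filter. VGLL4, which competes with YAP for TEAD, differed by 0.25 (adjusted p = 0.0261 in limma), and YAP1 by -0.16 (adjusted p = 0.0300 in limma). After scaling VGLL4 differed by 0.16 (adjusted p = 0.111 in limma) and YAP1 by -0.27 (adjusted p = 0.00527 in limma). TEAD2, TEAD3, TEAD4 and WWTR1, the gene of TAZ, differed by -0.18, -0.02, 0.01 and -0.03 with adjusted p of 0.0805 or more in limma, and TEAD4 turned negative after scaling (-0.09). VGLL1, FAM181A and FAM181B stayed below the filter, with means of 0 to 0.258 FPKM with VGLL2-NCOA2 and of 0 to 0.249 FPKM with TEAD1-NCOA2. Among the 32 tested components of the Hippo pathway, which include its kinases and scaffolds, none was called on either scale, and the median difference was 0.14. Without the size threshold 13 of them were higher and 2 lower at an adjusted p under 0.05 in limma, 15 had an unadjusted p under 0.05, and voom on recovered fragments called 0. Over all tested genes these shares were 29.0% higher, 13.5% lower, 51.8% at an unadjusted p under 0.05 and 5.27% called by voom. The most abundant were SCRIB, a polarity scaffold, with a difference of -0.44 (adjusted p = 0.0221 in limma), and AMOT, an angiomotin that binds YAP, with -0.05 (adjusted p = 0.497 in limma).

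The TEAD targets named by the study were higher with VGLL2-NCOA2, and 3 of the 4 were called on both scales. ANKRD1, a cardiac ankyrin repeat protein and a standard readout of YAP and TEAD, had 48.1, 45.4 and 49.5 FPKM with VGLL2-NCOA2, against 7.33, 9.64 and 10.5 with TEAD1-NCOA2 and 0.452 to 0.939 in control. CYR61 (CCN1), a secreted matricellular protein, had 192, 192 and 190.2 FPKM with VGLL2-NCOA2, against 51.0, 60.1 and 54.6 with TEAD1-NCOA2 and 3.25 to 7.19 in control. CTGF (CCN2), of the same secreted family, had 152, 145 and 159 FPKM with VGLL2-NCOA2, against 62.8, 71.6 and 70.1 with TEAD1-NCOA2 and 1.46 to 1.91 in control. For all 3 genes every VGLL2-NCOA2 library lay above every TEAD1-NCOA2 library, and these in turn above every control library. The differences were 2.27 ± 0.12 for ANKRD1 (adjusted p = 8.18e-05), 1.78 ± 0.06 for CYR61 (adjusted p = 2.05e-05) and 1.15 ± 0.07 for CTGF (adjusted p = 1.09e-04 in limma), or 5.20-, 3.47- and 2.23-fold between means. Mean NCOA2 itself was 2.37-fold higher, and how the targets respond to the amount of fusion transcript was not tested. AMOTL2, an angiomotin that restrains YAP and is itself a TEAD target, averaged 19.2 ± 0.905 FPKM with VGLL2-NCOA2, 12.8 ± 1.23 with TEAD1-NCOA2 and 2.11 ± 0.338 in control. Its difference of 0.55 ± 0.07 (adjusted p = 0.00182 in limma) was below the size threshold.

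Calls across all genes numbered 301 higher with VGLL2-NCOA2, 2.13% of the genes tested, and 75 lower, 0.532%. After median-of-ratios scaling the counts were 215 higher (1.52%) and 100 lower (0.709%), so the share of higher calls was 80.1% unscaled and 68.3% scaled. It was 89.5% on a TPM scale, 61.1% after quantile normalization and 56.3% after a correction for gene length and GC content. Called on both scales were 215 higher genes, 1.52% of those tested, and 75 lower genes, 0.532%. A gene is described as called by limma only where it is among these 290. Counts without the size threshold come from the unscaled fit alone.

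In the broader signature of 22 TEAD targets 15 passed the filter. Their median difference was 0.45, or 0.38 after scaling, beside 0.10 and 0.01 over all tested genes. CTGF, CYR61 and ANKRD1 were the 3 members called, and none was called lower, beside 1.52% higher and 0.532% lower over all tested genes. Without the size threshold 10 of the 15 were higher and 2 lower at an adjusted p under 0.05, beside 29.0% higher and 13.5% lower over all tested genes. The study names the 4 TEAD genes, as established targets, in its own account of these samples, so their direction here is no independent evidence.

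The upstream windows of CTGF, ANKRD1, SPARC and DDR2 are shown for their TEAD motifs, 3 windows with a match and 1 without. The first 3 of these genes were higher with VGLL2-NCOA2 and DDR2 was lower. The windows are the 250 bases before the annotated start, from RefSeq on GRCh38.p14, read 5′ to 3′ on the strand of the gene. Capitals mark GGAATG or its reverse complement CATTCC, searched on both strands with no overlaps between matches.
CTGF, chr6:131951373-131951622, minus strand: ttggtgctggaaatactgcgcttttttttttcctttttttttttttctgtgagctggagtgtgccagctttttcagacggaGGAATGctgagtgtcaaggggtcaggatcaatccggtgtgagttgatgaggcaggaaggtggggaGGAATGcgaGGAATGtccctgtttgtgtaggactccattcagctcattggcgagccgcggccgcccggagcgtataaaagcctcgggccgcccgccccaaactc
ANKRD1, chr10:90921088-90921337, minus strand: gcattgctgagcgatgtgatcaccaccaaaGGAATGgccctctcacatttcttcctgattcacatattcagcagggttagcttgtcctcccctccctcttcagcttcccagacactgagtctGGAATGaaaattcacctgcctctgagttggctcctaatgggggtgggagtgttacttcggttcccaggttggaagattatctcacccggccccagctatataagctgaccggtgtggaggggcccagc
SPARC, chr5:151686916-151687165, minus strand: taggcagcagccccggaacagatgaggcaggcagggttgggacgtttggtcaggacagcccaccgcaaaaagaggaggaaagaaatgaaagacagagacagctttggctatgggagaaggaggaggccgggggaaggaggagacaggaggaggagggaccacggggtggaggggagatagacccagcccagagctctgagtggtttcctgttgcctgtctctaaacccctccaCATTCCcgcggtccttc
DDR2, chr1:162630613-162630862, plus strand, the first of 3 starts in the table: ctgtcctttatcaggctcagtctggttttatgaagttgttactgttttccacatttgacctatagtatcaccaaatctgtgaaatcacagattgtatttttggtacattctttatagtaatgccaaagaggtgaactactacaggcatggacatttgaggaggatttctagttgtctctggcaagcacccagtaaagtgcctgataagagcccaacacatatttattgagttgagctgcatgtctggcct
CTGF had 3 matches, whose first bases lay 169, 104 and 95 bases before the start. ANKRD1 had 2 matches, at 220 and 128 bases, and SPARC 1 at 17 bases, while the DDR2 window held none. Of the 35116 upstream windows of the same length in the table, 11.9% held a match. The share was 15.7% of the 83 genes called higher that have such a window, 22.7% of the 22 called lower and 12.6% of the 9308 tested, so the 4 windows shown do not stand for the called genes in general. A match is a string of letters and was not tested for binding.

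Among protein-coding genes 115 were called higher on both scales and 28 lower, of 11366 tested. Those with the largest differences are shown with the control libraries in the plot of the 12 highest and 12 lowest genes.

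**Figure D2:**
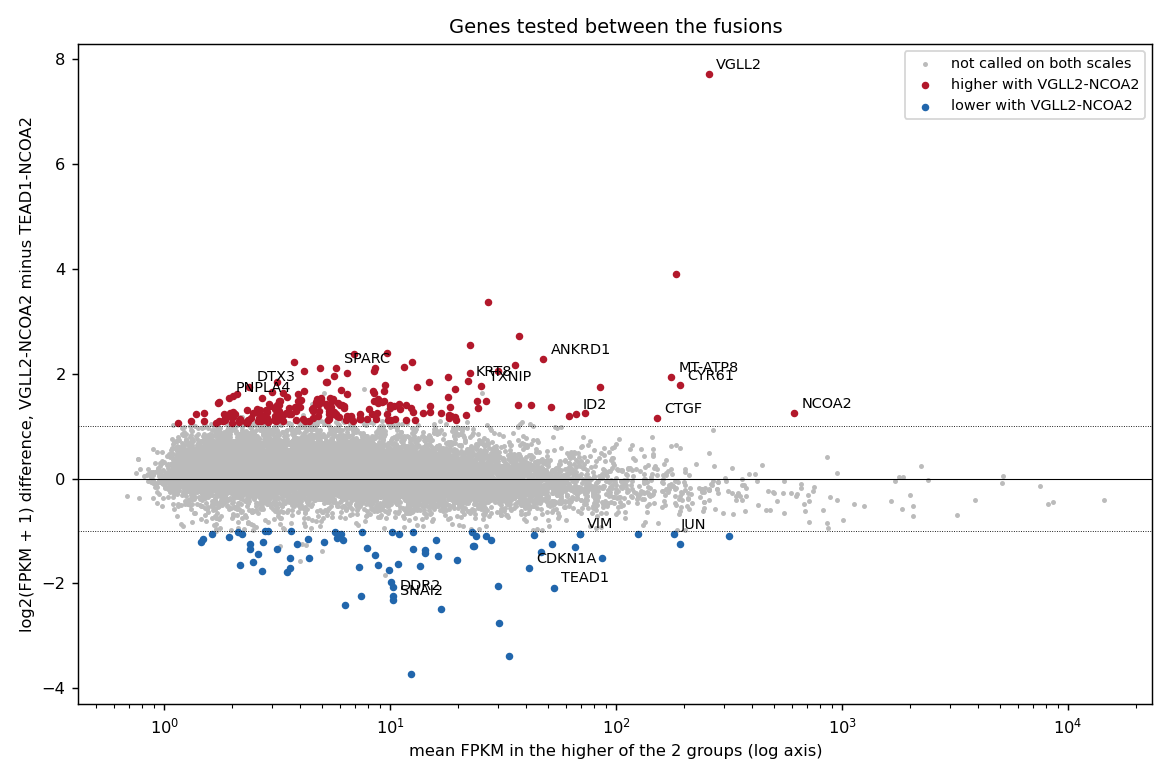
Log2(FPKM + 1) difference, VGLL2-NCOA2 minus TEAD1-NCOA2 (y axis), against the mean FPKM of the higher group (x axis, log scale) for the 14109 tested genes. Red and blue points are the 215 higher and 75 lower genes called on both scales, dotted lines mark differences of 1 and -1.

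SPARC, a matricellular protein that binds collagen, had 5.99, 5.42 and 5.93 FPKM with VGLL2-NCOA2, against 0.450, 0.671 and 0.608 with TEAD1-NCOA2 and 0.895 to 1.31 in control. KRT8, a keratin of simple epithelia, had 22.7, 21.7 and 22 FPKM with VGLL2-NCOA2, against 5.41, 5.78 and 5.09 with TEAD1-NCOA2 and 11.7 to 14.8 in control. Both genes were thus above control with one fusion and below it with the other, in every library. The differences were 2.11 ± 0.09 for SPARC (adjusted p = 4.07e-05) and 1.85 ± 0.06 for KRT8 (adjusted p = 1.67e-05 in limma).

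Other genes were close to control with VGLL2-NCOA2 and lower with TEAD1-NCOA2. VAMP8, a SNARE of vesicle fusion, had 11.2, 11.5 and 11.8 FPKM with VGLL2-NCOA2, against 1.68, 1.80 and 2.12 with TEAD1-NCOA2 and 3.39 to 11.7 in control (difference 2.13, adjusted p = 1.75e-05 in limma). CYBA, the small subunit of the NADPH oxidase cytochrome, averaged 30.1 ± 2.05 FPKM with VGLL2-NCOA2, 6.57 ± 0.841 with TEAD1-NCOA2 and 40.7 ± 17.6 in control (difference 2.04, adjusted p = 5.27e-05 in limma). The control libraries spread widely for both genes and included values on either side of the VGLL2-NCOA2 mean.

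FBXL16, ZCCHC12 and BASP1 were below control with both fusions and lowest with TEAD1-NCOA2. FBXL16, an F-box protein, averaged 6.44 ± 0.890 FPKM with VGLL2-NCOA2, 0.858 ± 0.232 with TEAD1-NCOA2 and 19.4 ± 1.60 in control. FBXL16 passed the filter only through the VGLL2-NCOA2 libraries. ZCCHC12, a zinc finger protein, averaged 18.1 ± 1.22 FPKM with VGLL2-NCOA2, 4.01 ± 0.738 with TEAD1-NCOA2 and 60.6 ± 4.20 in control. BASP1, a membrane protein of nerve growth cones, averaged 14.8 ± 0.569 FPKM with VGLL2-NCOA2, 3.41 ± 0.411 with TEAD1-NCOA2 and 34.6 ± 10.7 in control. Their differences were 2.0, 1.93 and 1.84, with adjusted p between 4.60e-05 and 1.44e-04 in limma. MT-ATP8, a mitochondrial gene of the ATP synthase, also ranked here with a difference of 1.93, at 483, 765 and 502 recovered fragments with VGLL2-NCOA2 and 115, 202 and 134 with TEAD1-NCOA2. It overlaps MT-ATP6, which differed by -0.09, and how shared fragments were assigned is not given in the sources used here.

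**Figure D3:**
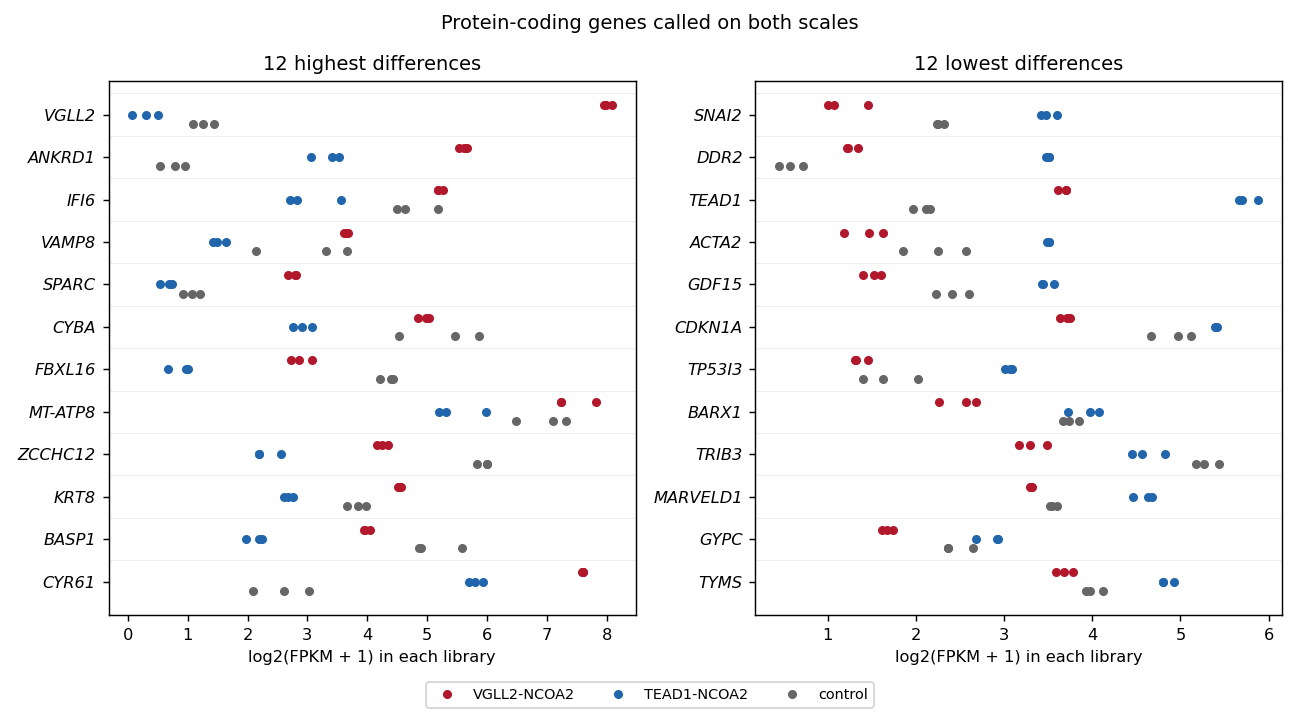
Log2(FPKM + 1) in each library (x axis) for the 12 protein-coding genes with the highest and the 12 with the lowest difference among those called on both scales whose mean reached 5 FPKM with at least one fusion. Each gene has a row of 3 VGLL2-NCOA2, 3 TEAD1-NCOA2 and 3 control points, and control lies above both fusions for FBXL16, ZCCHC12, BASP1 and TRIB3 but below both for ANKRD1, CYR61, DDR2 and TEAD1.

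The position of control differed between the higher and the lower genes. Of the 115 protein-coding genes called higher, control lay below both fusion means for 10 (8.70%), between them for 40 (34.8%) and above both for 65 (56.5%). Of the 28 called lower, it lay below both for 5 (17.9%), between them for 19 (67.9%) and above both for 4 (14.3%). Of all 8850 tested genes with a positive difference, control lay below both fusion means for 43.9%, between them for 17.5% and above both for 38.6%. Of the 5259 with a negative one, it lay below both for 31.1%, between them for 12.9% and above both for 56.0%. With the 9 libraries put on a common scale, control was above both for 65 of the 115 and between them for 19 of the 28. These positions were read from means with no test, and both fusions share the control libraries. The 3 tables may have been normalized separately.

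The genes lowest with VGLL2-NCOA2 were led by SNAI2 and DDR2. SNAI2, the repressor Slug of epithelial-mesenchymal transition, had 1.75, 1.10 and 1.0 FPKM with VGLL2-NCOA2, against 9.69, 11.1 and 10.1 with TEAD1-NCOA2 and 3.74 to 3.98 in control. DDR2, a receptor tyrosine kinase for fibrillar collagen, had 1.54, 1.35 and 1.33 FPKM with VGLL2-NCOA2, against 10.1, 10.4 and 10.4 with TEAD1-NCOA2 and 0.367 to 0.646 in control. ACTA2, the smooth muscle actin, had 1.76, 1.27 and 2.10 FPKM with VGLL2-NCOA2, against 10.2, 10.4 and 10.4 with TEAD1-NCOA2 and 2.61 to 4.94 in control. With TEAD1-NCOA2 all 3 genes exceeded every control library, whereas with VGLL2-NCOA2 SNAI2 and ACTA2 were below every control library and DDR2 was above. The means were 8.01, 7.31 and 6.05 times as high with TEAD1-NCOA2. The differences were -2.32 ± 0.13 (adjusted p = 1.03e-04), -2.23 ± 0.06 (adjusted p = 1.42e-05) and -2.08 ± 0.11 (adjusted p = 9.67e-05 in limma).

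CDKN1A, TP53I3 and BTG2, which are known to respond to p53, were lower with VGLL2-NCOA2. CDKN1A, which encodes the cyclin-dependent kinase inhibitor p21, had 12.4, 12.1 and 11.4 FPKM with VGLL2-NCOA2, against 40.9, 41.7 and 41.4 with TEAD1-NCOA2 and 24.3 to 33.9 in control. TP53I3, an oxidoreductase induced by p53, had 1.74, 1.48 and 1.5 FPKM with VGLL2-NCOA2, against 7.49, 7.37 and 7.03 with TEAD1-NCOA2 and 1.64 to 3.07 in control. BTG2, an antiproliferative adaptor of mRNA deadenylation, had 10.3, 11.4 and 11.0 FPKM with VGLL2-NCOA2, against 23.2, 22.3 and 23.6 with TEAD1-NCOA2 and 10.5 to 11.4 in control. The fusion groups did not overlap for any of these genes, but this was a condition for naming CDKN1A and TP53I3 among the 12 lowest. Over all tested genes the VGLL2-NCOA2 libraries lay wholly below in 18.3%. CDKN1A was on opposite sides of control in every library. Of 16 listed p53 response genes, all tested, these 3 were called lower and none higher, with differences of -1.71, -1.69 and -1.01 and adjusted p of 1.42e-05, 3.97e-05 and 9.23e-05 in limma. BTG2 missed the size threshold without TEAD1-NCOA2 replicate 3 (-0.99), without VGLL2-NCOA2 replicate 1 (-0.97) and on the TPM scale (-0.97). These calls stand beside 0.532% lower and 1.52% higher on both scales over all tested genes. The median difference of the list was -0.59, or -0.69 after scaling, beside 0.10 and 0.01 over all tested genes. Without the size threshold 11 members were lower and 2 higher at an adjusted p under 0.05, beside 13.5% lower and 29.0% higher over all tested genes. TP53I3 overlaps the gene FAM228B on the other strand, and whether the counting used strand is not given in the sources used here.

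Further genes lower with VGLL2-NCOA2 included other targets of p53 and of stress pathways. GDF15, a secreted stress cytokine, averaged 1.85 ± 0.209 FPKM with VGLL2-NCOA2, 10.1 ± 0.597 with TEAD1-NCOA2 and 4.36 ± 0.711 in control (difference -1.97, adjusted p = 3.38e-05 in limma). TRIB3, a pseudokinase of the ATF4 response, averaged 9.01 ± 1.15 FPKM with VGLL2-NCOA2, 23.5 ± 3.34 with TEAD1-NCOA2 and 38.3 ± 3.64 in control (difference -1.29, adjusted p = 4.71e-04 in limma). TYMS, the thymidylate synthase of DNA synthesis, averaged 11.9 ± 0.910 FPKM with VGLL2-NCOA2, 27.8 ± 1.49 with TEAD1-NCOA2 and 15.1 ± 1.13 in control (difference -1.17, adjusted p = 1.15e-04 in limma). GDF15 and TYMS were above control with TEAD1-NCOA2 and below it with VGLL2-NCOA2, and TRIB3 was below control with both. The homeobox gene BARX1, MARVELD1 and the glycophorin gene GYPC completed the 12 lowest, with differences of -1.42, -1.28 and -1.17. PHLDA3 and SPATA18, both known p53 targets and both chosen after their values were seen, differed by -1.10 and -1.02, but by -1.0 without VGLL2-NCOA2 replicate 3 and by -0.99 without VGLL2-NCOA2 replicate 1, just short of the call.

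IFI6, IFIT1 and BST2, genes of the interferon response, were higher with VGLL2-NCOA2. IFI6, an interferon-induced membrane protein, had 37.3, 35.2 and 35.1 FPKM with VGLL2-NCOA2, against 6.13, 10.8 and 5.55 with TEAD1-NCOA2 and 21.5 to 35.4 in control. IFIT1, which binds foreign RNA ends, had 3.73, 4.0 and 4.71 FPKM with VGLL2-NCOA2, against 0.568, 0.565 and 0.741 with TEAD1-NCOA2 and 0.663 to 0.886 in control. BST2, the antiviral protein tetherin, had 5.78, 5.12 and 7.23 FPKM with VGLL2-NCOA2, against 1.03, 0.852 and 1.77 with TEAD1-NCOA2 and 1.87 to 5.35 in control. The fusions did not overlap for these genes, while control was near VGLL2-NCOA2 for IFI6 and near TEAD1-NCOA2 for IFIT1. Of 22 listed genes 10 passed the filter, 3 were called higher with differences of 2.17, 1.66 and 1.68 and adjusted p of 5.42e-04, 1.38e-04 and 7.35e-04 in limma, and none was called lower. The calls stand beside 1.52% higher and 0.532% lower on both scales over all tested genes. The median difference was 0.76, or 0.70 after scaling, beside 0.10 and 0.01 over all tested genes. IFIT1 passed the filter only through the VGLL2-NCOA2 libraries. BST2 did not reach 1 FPKM in every TEAD1-NCOA2 library and so needed them too. These calls, the median and the counts therefore depend in part on the filter. Without the size threshold 8 of the 10 were higher and none lower at an adjusted p under 0.05, beside 29.0% and 13.5% over all tested genes. The summed level of all 22 was 101 to 108 FPKM with VGLL2-NCOA2, 43.6 to 47.0 with TEAD1-NCOA2 and 58.2 to 79.3 in control.

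Low interferon genes that missed the filter could be read as whole fragments. IFIT3, a partner of IFIT1, had 54, 45 and 36 fragments with VGLL2-NCOA2, against 3, 5 and 5 with TEAD1-NCOA2 and 3 to 4 in control. OAS3, a synthetase of the RNA-sensing 2-5A pathway, had 114, 107 and 90 fragments with VGLL2-NCOA2, against 3, 4 and 6 with TEAD1-NCOA2 and 3 to 12 in control. IFI44L had 128, 166 and 169 fragments with VGLL2-NCOA2, against 3, 9 and 5 with TEAD1-NCOA2 and 35 to 48 in control. These 3 were chosen after their values were seen and were not tested, and in each the lowest VGLL2-NCOA2 library had more fragments than the highest TEAD1-NCOA2 library.

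Genes at or near 0 with only one of the fusions were few. By the rule for such genes, DTX3, a Deltex family protein, had 173, 148 and 146 fragments with VGLL2-NCOA2, 0 in all TEAD1-NCOA2 libraries and 95 to 108 in control. PNPLA4, a patatin-like lipase, had 82, 123 and 116 fragments with VGLL2-NCOA2, 0 in all TEAD1-NCOA2 libraries and 59 to 60 in control. Both were thus present without a fusion and listed at 0 with TEAD1-NCOA2. With a floor of 3 fragments per library, DTX3 was at least 51.7-fold and PNPLA4 at least 35.4-fold higher with VGLL2-NCOA2. Limma gave differences of 1.75 and 1.54 (adjusted p = 1.73e-04 and 4.36e-04), which depend on the pseudocount and are no bounds. Both genes were chosen for this pattern and passed the filter only through VGLL2-NCOA2, so these p-values are no support for it. No protein-coding gene met the rule in the other direction.

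A few more genes of this kind were chosen after their values were seen. MAS1, a receptor of angiotensin peptides, had 66, 46 and 82 fragments with VGLL2-NCOA2, against 0, 0 and 1 with TEAD1-NCOA2 and 0 in all control libraries. NPPB, the gene of B-type natriuretic peptide, had 58, 36 and 36 fragments with VGLL2-NCOA2, against 8, 9 and 7 with TEAD1-NCOA2 and 0 in all control libraries. PGR, the progesterone receptor, had 38, 43 and 47 fragments with TEAD1-NCOA2 and 0 in all VGLL2-NCOA2 and control libraries. MAS1 and PGR were below the filter and not tested, and NPPB was called with a difference of 1.48 (adjusted p = 0.00109 in limma). NPPB passed the filter only through the VGLL2-NCOA2 libraries and was chosen for its values, so this p-value is no support for the pattern. With the same floor PGR was at least 14.3-fold lower with VGLL2-NCOA2.

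**Figure D4:**
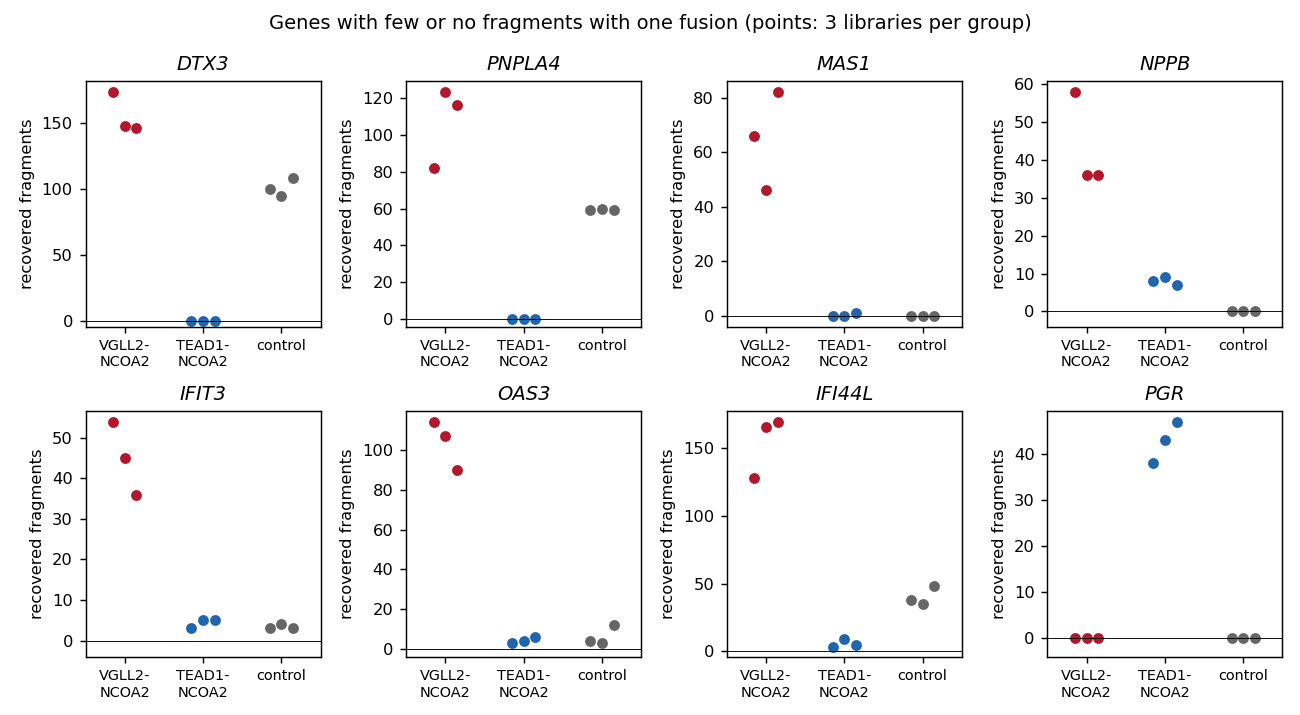
Recovered fragments per library (y axis, a linear scale of its own in each panel) for DTX3, PNPLA4, MAS1, NPPB, IFIT3, OAS3, IFI44L and PGR in the VGLL2-NCOA2, TEAD1-NCOA2 and control libraries. DTX3 and PNPLA4 are at 0 only with TEAD1-NCOA2, and PGR is above 0 only with TEAD1-NCOA2.

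The epithelial genes KRT8, CDH1 and TJP3 were higher with VGLL2-NCOA2, and the mesenchymal genes SNAI2 and VIM were lower. Of 15 simple epithelial genes 6 passed the filter. KRT8, the cadherin gene CDH1 and the tight junction gene TJP3 were the calls, and the median was 0.99, beside 0.10 over all tested genes. Over all tested genes 1.52% were called higher on both scales and 0.532% lower. CDH1 and TJP3 passed the filter only through the VGLL2-NCOA2 libraries, so their calls and the median depend in part on the filter. CDH1 had 2.64, 2.19 and 2.82 FPKM with VGLL2-NCOA2, against 0.549, 0.453 and 0.437 with TEAD1-NCOA2 and 1.19 to 2.18 in control (difference 1.26, adjusted p = 4.15e-04 in limma). TJP3 averaged 1.85 ± 0.159 FPKM with VGLL2-NCOA2, 0.289 ± 0.113 with TEAD1-NCOA2 and 5.90 ± 0.959 in control (difference 1.15, adjusted p = 7.62e-04 in limma). CDH1 was above control only with VGLL2-NCOA2 in every library, and TJP3 was below control with both fusions. Of 15 fibroblast and mesenchymal genes 7 passed, SNAI2 and VIM were called lower and none higher, and the median was -0.11. Without the size threshold the list went both ways, with 3 members lower and 2 higher at an adjusted p under 0.05. The higher members were the cadherin gene CDH2 (difference 0.31) and the repressor gene SNAI1 (0.52, or 1.07 with a pseudocount of 0.1 and with voom), both named after their values were seen. VIM, the intermediate filament vimentin, averaged 32.8 ± 0.839 FPKM with VGLL2-NCOA2, 69.2 ± 6.67 with TEAD1-NCOA2 and 143 ± 18.8 in control (difference -1.05, adjusted p = 1.94e-04 in limma). It fell short of the call without TEAD1-NCOA2 replicate 2 (-0.99), on the TPM scale (-0.97) and after quantile normalization (-0.98), as did TJP3 after quantile normalization (0.93).

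SPARC and the collagen genes COL1A1 and COL9A3 were higher with VGLL2-NCOA2, the 3 calls among 22 tested matrix genes. None was called lower, and the median was 0.31, or 0.22 after scaling. Over all tested genes 1.52% were called higher on both scales and 0.532% lower. SPARC and COL9A3 passed the filter only through the VGLL2-NCOA2 libraries. COL1A1 averaged 4.56 ± 0.548 FPKM with VGLL2-NCOA2, 1.19 ± 0.156 with TEAD1-NCOA2 and 7.99 ± 2.12 in control (difference 1.35, adjusted p = 2.73e-04 in limma). COL9A3 averaged 2.68 ± 0.200 FPKM with VGLL2-NCOA2, 0.609 ± 0.141 with TEAD1-NCOA2 and 2.84 ± 1.11 in control (difference 1.20, adjusted p = 4.60e-04 in limma). Both collagens were thus no higher on average than control with either fusion, and COL9A3 lost its call after quantile normalization (0.94). Among 14 tested collagen receptors and integrins the laminin receptor gene ITGA7 was called higher (difference 1.22, adjusted p = 2.87e-04 in limma) and DDR2 lower, and the median was 0.37, or 0.29 after scaling.

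The guidance genes SEMA6B, a semaphorin, and UNC5A, a netrin receptor, were called higher on both scales, of 28 tested, and none was called lower. Over all tested genes 1.52% were called higher on both scales and 0.532% lower. UNC5A passed the filter only through the VGLL2-NCOA2 libraries. SEMA6B averaged 8.35 ± 1.13 FPKM with VGLL2-NCOA2, 1.94 ± 0.169 with TEAD1-NCOA2 and 21.3 ± 2.99 in control (difference 1.66, adjusted p = 1.36e-04 in limma). UNC5A averaged 2.17 ± 0.367 FPKM with VGLL2-NCOA2, 0.449 ± 0.0603 with TEAD1-NCOA2 and 4.82 ± 0.947 in control (difference 1.12, adjusted p = 8.21e-04 in limma). NEFM, a neurofilament subunit that HEK293T cells express, averaged 42.0 ± 0.747 FPKM with VGLL2-NCOA2, 15.3 ± 2.11 with TEAD1-NCOA2 and 94.6 ± 14.1 in control (difference 1.41, adjusted p = 1.5e-04 in limma). All 3 genes lay below control with both fusions, and UNC5A lost its call after quantile normalization (0.87) and, just under the threshold, after the correction for length and GC content (1.0).

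The arrestins that respond to glucose and the ID genes were likewise lower with both fusions than in control, and lowest with TEAD1-NCOA2. TXNIP, the thioredoxin-interacting protein, had 25.3, 24.0 and 26.6 FPKM with VGLL2-NCOA2, against 6.16, 7.54 and 6.72 with TEAD1-NCOA2 and 105 to 118 in control (difference 1.76, adjusted p = 4.78e-05 in limma). ARRDC4, its relative, averaged 21.7 ± 0.606 FPKM with VGLL2-NCOA2, 8.92 ± 1.43 with TEAD1-NCOA2 and 53.5 ± 7.15 in control (difference 1.20, adjusted p = 4.04e-04 in limma). These were the 2 called on both scales among 8 tested genes of this list, and its median was 0.75. ID1, ID2 and ID4, inhibitors of DNA binding induced by BMP signalling, were called higher with differences of 1.41, 1.23 and 1.19 and adjusted p between 1.76e-05 and 9.28e-04 in limma. ID2 averaged 66.2 ± 1.57 FPKM with VGLL2-NCOA2, 27.7 ± 0.477 with TEAD1-NCOA2 and 139.6 ± 3.20 in control. In the list of 27 tested TGF-beta and BMP genes these 3 were the higher calls and GDF15 the lower one, with a median of 0.22. Over all tested genes 1.52% were called higher on both scales and 0.532% lower, and the median was 0.10.

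**Figure D5:**
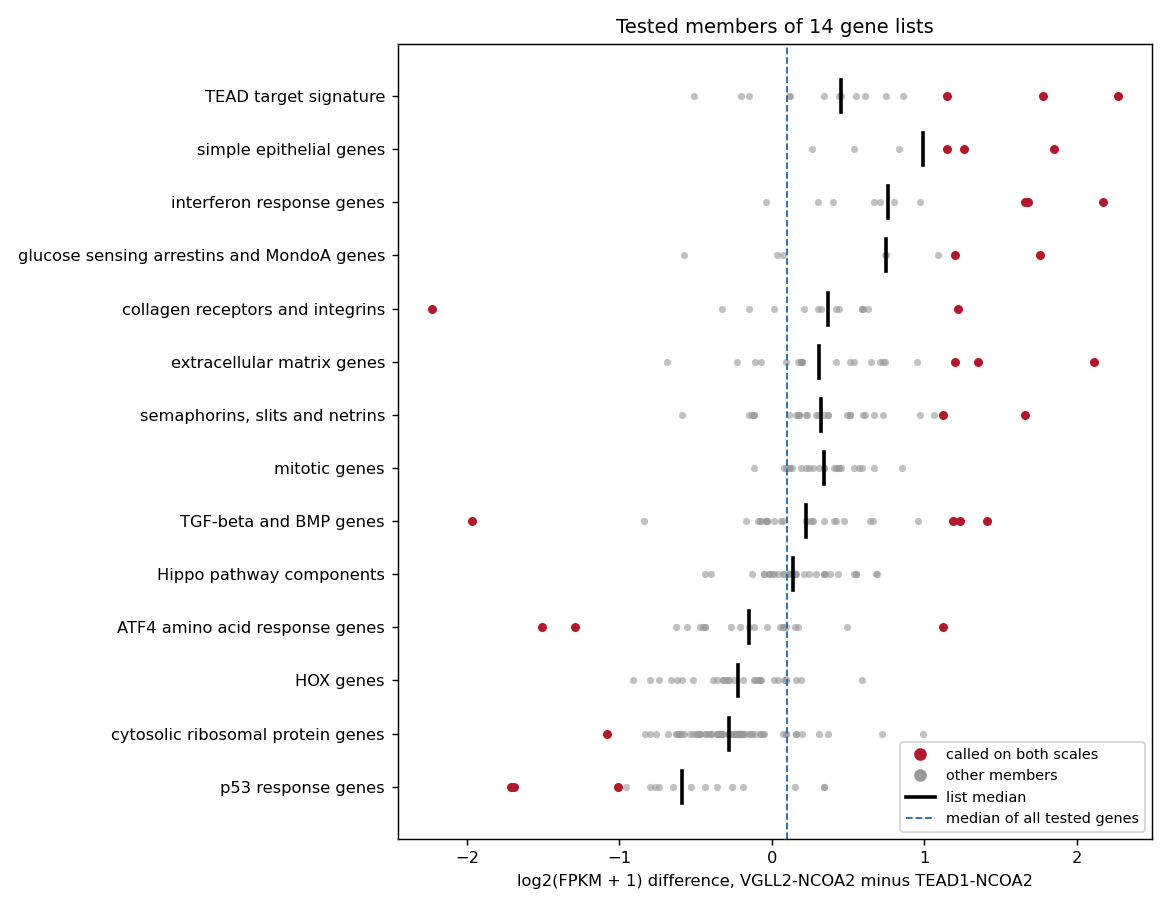
Log2(FPKM + 1) difference, VGLL2-NCOA2 minus TEAD1-NCOA2 (x axis), of the tested members of 14 gene lists, 1 point per gene. Black bars are list medians, from 0.99 for simple epithelial genes to -0.59 for p53 response genes, and the dashed line is the median of all tested genes, 0.10.

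Calls among amino acid response genes went both ways, while more members were lower than higher. Of 21 tested genes of the ATF4 response, ASNS, the asparagine synthetase, was called higher, with 9.79 ± 1.15 FPKM with VGLL2-NCOA2, 3.95 ± 0.277 with TEAD1-NCOA2 and 4.17 ± 0.841 in control (difference 1.12, adjusted p = 3.30e-04 in limma). TRIB3 and NUPR1, a small stress protein, were called lower, and NUPR1 averaged 0.620 ± 0.119 FPKM with VGLL2-NCOA2, 3.61 ± 0.192 with TEAD1-NCOA2 and 1.62 ± 0.215 in control (difference -1.51, adjusted p = 1.37e-04 in limma). NUPR1 passed the filter only through the TEAD1-NCOA2 libraries. Calls on both scales made up 1.52% (higher) and 0.532% (lower) of all tested genes. The list median was -0.15, or -0.26 after scaling. Without the size threshold 9 members were lower and 2 higher at an adjusted p under 0.05, beside 13.5% and 29.0% of all tested genes. Among 14 tested AP-1 factors only JUN was called, with 85.5 ± 1.61 FPKM with VGLL2-NCOA2, 180.0 ± 21.5 with TEAD1-NCOA2 and 405 ± 34.9 in control (difference -1.06, adjusted p = 3.30e-04 in limma). JUN missed the size threshold without TEAD1-NCOA2 replicate 2 (-0.97), on the TPM scale (-0.97) and after quantile normalization (-0.93), and ASNS after that normalization (0.99).

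Growth genes showed small differences. Their calls stand beside 1.52% higher and 0.532% lower on both scales over all tested genes. None of 23 tested mitotic genes was called by limma, their median was 0.34, or 0.23 after scaling, and 17 were higher and none lower at an adjusted p under 0.05 without the size threshold, beside 29.0% and 13.5% of all tested genes (18 at an unadjusted p under 0.05, and 0 called by voom). The most abundant were TOP2A, the mitotic topoisomerase, with a difference of 0.24 (adjusted p = 0.00365 in limma), and the spindle factor TPX2 with 0.12 (adjusted p = 0.302 in limma). Of 74 cytosolic ribosomal protein genes RPL26 alone was called, with a difference of -1.08 (adjusted p = 0.00152 in limma, 0.0599 with all 12 libraries in the fit), and the median was -0.28. Without the size threshold 54 of them were lower and 5 higher, beside 13.5% and 29.0% of all tested genes. Many ribosomal protein genes have near-identical pseudogenes, between which fragments cannot be assigned with certainty. Among 22 tested glycolysis genes limma called none on both scales, voom called 2, 16 had an unadjusted p under 0.05, and the median was -0.18. Over all tested genes voom called 5.27%, and 51.8% had an unadjusted p under 0.05 in limma. Without the size threshold 10 glycolysis genes were lower and 3 higher at an adjusted p under 0.05, beside 13.5% and 29.0% of all tested genes. GAPDH differed by -0.65 (adjusted p = 0.00155 in limma) and ENO1 by -0.34 (adjusted p = 0.0274 in limma). The 30 tested HOX genes, which pattern the body axis, had a median of -0.22 with no call by limma on both scales, 3 calls by voom and 15 members at an unadjusted p under 0.05, a share near that of all tested genes. Without the size threshold 12 were lower and 1 higher at an adjusted p under 0.05, beside the same 13.5% and 29.0%. HOXB9 (-0.91, adjusted p = 1.37e-04 in limma) passed the size threshold only after scaling (-1.02) and with voom (-1.04), and HOXA5 differed by -0.80 (adjusted p = 0.00111 in limma). The histone gene HIST1H2BD was the only call of 16 tested histone genes, with a difference of 1.18 (adjusted p = 0.00107 in limma), or 1.0 and just under the threshold after quantile normalization.

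In several further lists the only call was a single gene. Calls on both scales made up 1.52% (higher) and 0.532% (lower) of all tested genes. ACTA2 was the call among 15 tested genes of SRF and the cytoskeleton, BTG2 among 14 cAMP and CREB response genes, TYMS among 28 genes of DNA replication, NCOA2 among 20 NCOA and acetyltransferase genes, and MT-ATP8 among 13 mitochondrially encoded genes. The medians of these lists were -0.02, 0.10, -0.02, -0.11 and -0.09, and all but that of the acetyltransferase genes changed sign under another scaling. Another 12 lists, which were receptor tyrosine kinases without DDR2, listed with the collagen receptors, the Notch, Wnt and Hedgehog pathways, NF-kB response, MHC class I antigen presentation, endoplasmic reticulum stress, heat shock, cholesterol synthesis, MYC with the D cyclins, the nuclear respiratory chain and developmental transcription factors, had no call on both scales. They held 225 tested members, of which 130 had an unadjusted p under 0.05 in limma and 7 were called by voom, beside 51.8% and 5.27% of all tested genes. Their medians ran between -0.04 and 0.35, the highest being that of the receptor tyrosine kinases. Without the size threshold 18 of the 25 kinases tested were higher and 0 lower at an adjusted p under 0.05 in limma. These counts stand beside 29.0% and 13.5% of all tested genes.

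Leukocyte and endothelial markers stayed low, whereas the muscle and mesenchymal lists held expressed genes. The 12 leukocyte genes summed to 3.09 to 4.22 FPKM with VGLL2-NCOA2, 1.53 to 1.83 with TEAD1-NCOA2 and 1.88 to 2.16 in control. The 10 endothelial genes summed to 2.68 to 3.21 FPKM with VGLL2-NCOA2, 1.57 to 1.87 with TEAD1-NCOA2 and 1.22 to 1.72 in control. In each list 1 gene passed the filter, 1 gene was at 0 in all 9 libraries, and neither limma nor voom called it, although its unadjusted p was under 0.05. The 15 fibroblast and mesenchymal genes, with VIM among them, summed to 71.1 to 73.8, 105 to 122 and 159 to 193 FPKM in the same order. Summed, the 24 skeletal muscle genes reached 37.0 to 39.5 FPKM with VGLL2-NCOA2, 30.1 to 31.1 with TEAD1-NCOA2 and 39.4 to 58.6 in control. Of these 24 genes 8 passed, limma called none, voom called 2 and 4 had an unadjusted p under 0.05. MYF5, MYF6 and MYOG were at 0 in all 9 libraries. Over all tested genes voom called 5.27%, and 51.8% had an unadjusted p under 0.05 in limma. The HEK293T genes VIM, NEFL, NEFM, KRT8, KRT18, LIN28B, HAND1 and UNCX passed the filter, and PAX2 did not. VIM, NEFM and KRT8 of this list were called between the fusions, and the part of a shift among cells of the line was not tested.

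Genes outside the protein-coding class made up 147 of the 290 calls. Of 379 tested small RNA genes (snRNA, snoRNA, miRNA and miscellaneous RNA) 43 were called higher and 1 lower, beside 1.52% and 0.532% of all tested genes. Of 21 mitochondrial tRNA genes none was called higher and 7 lower, and of 507 processed pseudogenes 23 were higher and 31 lower. Their differences ran to 3.90 for RN7SL2, a gene of the signal recognition particle RNA, and to -3.73 for MT-TS2, a mitochondrial tRNA, and TMSB4XP8, a thymosin pseudogene, had -3.39. These 3 were chosen after their values were seen. Such genes are short or have near-identical copies, and their values in libraries of polyadenylated RNA are uncertain.

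Of the 290 calls, 287 had libraries of the fusions that did not overlap. Across all tested genes the VGLL2-NCOA2 libraries lay wholly above the TEAD1-NCOA2 libraries in 37.3% and wholly below in 18.3%. Across protein-coding genes the difference had a Spearman correlation of -0.03 with GC content, 0.09 with gene length and -0.27 with the level in the higher group, given as a description over genes that share libraries.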

How the data were processed

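Column-purified RNA of transfected HEK293T cells went through a polyadenylation-selective SMARTER protocol and paired-end sequencing. The authors deposited 1 table per group, with an FPKM value for each gene in each library. Not given in the sources used here: aligner, counting tool and strand setting. Replicates were handled independently, but separate transfections are not stated, so p-values measure the spread between libraries, which may be technical.

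In the VGLL2-NCOA2, TEAD1-NCOA2 and control tables, 100.0% of low values (up to 20 fragments, tolerance 0.05) were whole fragments once FPKM was multiplied by gene length and divided by a unit set per library, and fragments were recovered there. Tables were joined by gene identifier, and 58724 of 58735 genes had the coordinates of GENCODE release 29. 12 symbols that had become dates were restored by identifier.

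Log2(FPKM + 1) values were modelled with limma 3.58.1 (R 4.3.3; lmFit, eBayes with trend) on the 6 libraries of the fusions, 2-sided, with the filter and the thresholds given in the report. The procedure was tested on simulated data. The study compared groups gene by gene, and the moderated test stands in for its test. Median-of-ratios factors were set over tested genes above 0 in all 6 libraries. Alternatives were a TPM scale, quantile normalization, a pseudocount of 0.1, no FPKM minimum or a minimum of 5, fits over 9 or 12 libraries, voom on recovered fragments, a replicate block, a spline correction for length and GC content, and leaving out each library.

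Named genes were the transfected genes, the TEAD factors and cofactors, the 4 TEAD targets of the study, and the 12 highest and 12 lowest protein-coding differences called on both scales with non-overlapping libraries whose mean reached 5 FPKM with at least one fusion. From the gene lists, up to 4 called members were added, or the 2 most abundant in some lists without a call. Up to 5 genes each way, listed at 0 with one fusion and at 1 FPKM or more with the other, completed them. The comparison, the genes and the 42 lists were chosen with earlier results of these data known. 3 list entries had no gene of that symbol.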

Additional observations from a re-analysis of the deposited data

Results flagged for a closer look

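Several named genes lay on opposite sides of control with the fusions, in every library, and the difference between the fusions was called by limma on both scales. Higher than control with VGLL2-NCOA2 and lower with TEAD1-NCOA2 were VGLL2 itself (log2 difference 7.71), SPARC (2.11), KRT8 (1.85), DTX3 (1.75), PNPLA4 (1.54), CDH1 (1.26) and the non-coding RN7SL2 (3.90). Lower than control with VGLL2-NCOA2 and higher with TEAD1-NCOA2 were SNAI2 (-2.32), ACTA2 (-2.08), GDF15 (-1.97), CDKN1A (-1.71), NUPR1 (-1.51), MARVELD1 (-1.28), GYPC (-1.17), TYMS (-1.17) and PHLDA3 (-1.10). All 16 kept these positions when the 9 libraries were put on a common scale. Across all 290 genes called on both scales, 27 lay above control with VGLL2-NCOA2 and below it with TEAD1-NCOA2, of which 20 were protein-coding, and 15 lay the other way, of which 13 were protein-coding. Both fusions share the control libraries.

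Outside the comparison, YAP5SA replicate 3 held VGLL2 at 54.4 FPKM and NCOA2 at 141 FPKM, above every control library, while the other 2 YAP5SA libraries were listed at 0 for both genes. This library enters only the fit over all 12 libraries.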

How the results depend on the processing

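Genes higher with VGLL2-NCOA2 numbered 301. The count was 741 on a TPM scale, 705 with a pseudocount of 0.1, 569 with voom on recovered fragments, 165 after quantile normalization, 157 after the length and GC correction and 130 with a minimum of 5 FPKM, where 7990 genes were tested. Genes lower numbered 75, against 174 with voom, 122 after the correction and 118 with a pseudocount of 0.1. Other settings stayed within 1.5 times. Leaving out 1 library gave 283 to 338 higher and 66 to 86 lower. Of the 376 calls 290 were shared after median-of-ratios scaling, 333 with voom, 232 after the correction and 231 after quantile normalization. The cause of these shifts was not tested.

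The replicate numbers did not pair the libraries: same-numbered libraries of the fusions correlated at -0.049, -0.02 and -0.011 in their deviations from the group means. With the replicate block 304 genes were higher and 74 lower, and after scaling 223 and 100, against 215 and 100 without it.

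Of 56 called genes of the text, 44 kept the call in every alternative that tested them, 12 lost it in 1 to 3, and none changed direction. The uncalled genes that changed sign were TEAD4 (0.01; -0.09 after scaling with or without the block, -0.08 after the correction, -0.02 after quantile normalization, -0.10 with voom, and -0.06 to 0.11 without 1 library), TEAD3 (-0.02; 0.07 on the TPM scale and -0.10 to 0.03 without 1 library), WWTR1 (0.05 on the TPM scale and -0.08 to 0.01 without 1 library) and AMOT (0.05 on the TPM scale). Of 42 list medians 30 kept their sign in every alternative, and the other 12 were at most 0.15 in size. Depth limits genes of a few fragments, and the spread rests on 3 libraries per group.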
